A study of Mus musculus with 8 samples.

Results

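Antigen presentation by MHC class II was followed through 10 mouse genes: the class II chains H2-Aa, H2-Ab1 and H2-Eb1, the peptide loading genes H2-DMa, H2-DMb1, H2-DMb2, H2-Oa and H2-Ob, the invariant chain gene Cd74 and the transactivator gene Ciita. They were chosen for their function, by symbol, and all 10 were found among the 41214 gene identifiers of the count files. Each was measured as messenger RNA in 8 spleen tumours of C57Bl6 mice, 1 library per mouse. The groups were CD4+ T cell tumours with Miz1 deltaPOZ (T deltaPOZ, n = 2) and with Miz1 wt (T wt, n = 2), and B cell tumours with Miz1 deltaPOZ (B deltaPOZ, n = 2) and with Miz1 wt (B wt, n = 2). Miz1 is the zinc finger transcription factor encoded by Zbtb17, and deltaPOZ denotes deletion of its POZ domain, which lets Miz1 molecules join each other. The labels give neither the promoter or cell type in which the allele was deleted nor the age of the mice or how the tumours began. All T file names carry the tag Notch and only those of T deltaPOZ also carry the tag ENU, so that tag and genotype cannot be told apart in T. The file names also give 1 run for all B and another for all T libraries, so run and lineage cannot be told apart either.

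MHC class II molecules are pairs of an alpha and a beta chain that show peptides from endosomes to CD4+ T cells. The invariant chain fills their groove until they reach the endosome, where H2-DM exchanges its remnant for peptides and H2-O holds H2-DM back. B cells, dendritic cells and macrophages make class II through CIITA, a coactivator that docks on factors bound to the X and Y boxes of the promoters. Mouse T cells as a rule make little of it. C57BL mice lack a functional E alpha chain gene, so the H2-Eb1 product has no usual partner in them; the pseudogene H2-Ea-ps had a CPM of 0 in 6 libraries and 0.0759 at most.

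The 8 H2 genes lie together on chromosome 17, in an interval of 224.3 kb (GRCm38, 34092340 to 34316674) that runs from H2-Oa to H2-Eb1; Cd74 and Ciita lie on other chromosomes. RefSeq promoters of GRCm38.p6 were matched for 7 members: H2-Aa, H2-Eb1, H2-DMa, H2-DMb1, H2-DMb2, H2-Oa and H2-Ob. In the 250 bases before each start site, both strands were searched for a core of the X box, written AG, any base at 2 positions, AC, any base at 2 positions, ATG, and for the Y box (ATTGG). The 2 motifs do not overlap where counted in order. In the B tumours H2-Aa, H2-Eb1 and H2-DMb2 had positive fold changes of deltaPOZ over wt, and H2-Ob and H2-Oa negative ones, none past the test. For H2-Oa the groups overlapped (log2 -0.26, SE 0.58) and the sign turned without B deltaPOZ 2 or B wt 1. The windows show where these letters lie before these genes, from 5′ to 3′ on the gene's strand, with matches in capitals.
H2-Aa, minus strand, chr17:34287862-34287926: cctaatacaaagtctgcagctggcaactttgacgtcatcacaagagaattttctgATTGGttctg
H2-Eb1, plus strand, chr17:34305753-34305817: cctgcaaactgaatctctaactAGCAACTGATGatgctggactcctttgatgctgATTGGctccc
H2-DMb2, plus strand, chr17:34145104-34145168: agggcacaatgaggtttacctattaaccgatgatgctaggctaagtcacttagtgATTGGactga
H2-Oa, plus strand, chr17:34092281-34092345: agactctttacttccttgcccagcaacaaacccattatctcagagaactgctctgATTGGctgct
H2-Ob, plus strand, chr17:34238793-34238857: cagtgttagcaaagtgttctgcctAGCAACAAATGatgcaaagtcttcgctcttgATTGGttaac
The X letters were followed by the Y letters on the same strand, within 60 bases, in 3 members: H2-Eb1, H2-DMb1 and H2-Ob, with gaps of 22, 23 and 20 bases. This order was found in 43 of 32851 promoters (0.131%), the X letters, with or without Y, in 2.60% and the Y letters, with or without X, in 33.8%. The Y letters were found in all 7 matched members. The 65-base windows of H2-DMb1 and H2-DMb2, set at the Y letters, were identical at 58 positions. All 65 bases of the H2-DMb1 window lay in annotated exons, so it is not printed, against 0 bases for H2-Eb1 and H2-Ob. A match is a description of letters and not a binding site.

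The libraries held 52839348 and 58271208 gene counts in T deltaPOZ, 49543181 and 57366409 in T wt, 53656993 and 50879887 in B deltaPOZ, and 56712176 and 44330101 in B wt. Levels are CPM, counts scaled to a common library size with edgeR's trimmed mean of M values, and a count of 0 would have allowed up to 0.0677 CPM (3 counts, counting error only). Zbtb17 stood at 40.1 and 36.9 CPM in T deltaPOZ, 49.6 and 42.3 in T wt, 49.4 and 59.1 in B deltaPOZ, and 66.1 and 48.0 in B wt, and its whole-gene count says little about the deleted exons. The 10 B cell markers summed to 25.9 to 141 CPM in T and 1953 to 3213 CPM in B, and 10 T cell markers to 2475 to 3961 CPM in T and 31.2 to 75.6 CPM in B. The T cell marker Cd3e stood at 78.5 to 93.4 CPM in T and 0.140 to 0.332 CPM in B, but Lck reached 47.9 CPM in B deltaPOZ 2. In the T libraries Cd8a (356 to 1246 CPM) was above Cd4 (98.8 to 432 CPM) in all 4, although the label names CD4+ cells only. Sex followed genotype in B: Xist stood at 0.757 and 0.936 CPM in B deltaPOZ and at 975 and 1477 CPM in B wt. Hbb-bs, a red cell gene, stood at 3834 and 6097 CPM in T deltaPOZ, 2009 and 11080 in T wt, 7.72 and 153 in B deltaPOZ, and 2.81 and 2.87 in B wt; it was highest in T wt 2 and higher in B deltaPOZ than in B wt, and its part in the class II levels was not tested. Some libraries stood apart: S100a8, a neutrophil gene, reached 236 CPM in B wt 2 and 217 CPM in T wt 1, Xist reached 1246 CPM in T wt 1, and 25387 genes had a count in T deltaPOZ 2, where the other libraries had 18339 to 21078. Ddx3y, a Y-linked gene, stood at 22.5 CPM in T wt 1, against 178 CPM in T wt 2 and 142 and 184 CPM in T deltaPOZ. T wt 1 thus held RNA of both Xist and Ddx3y. So did the other T libraries, with less Xist (11.8 and 35.35 CPM in T deltaPOZ, 26.0 CPM in T wt 2). The part of sex in the T fold changes was not tested. In bulk tumours fewer cells of a type and less RNA per cell cannot be told apart.

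In B tumours, 8 of the 10 genes had positive fold changes of deltaPOZ over wt (48.1% of all tested genes did) and 0 passed the test. H2-Aa, H2-Eb1, Cd74, Ciita and the 3 H2-DM genes had higher levels in both B deltaPOZ libraries than in either B wt library, H2-Ab1 overlapped, and H2-Ob, which encodes a chain of the H2-DM inhibitor, had lower levels in both. The median log2 fold change was 1.37 over the 10 genes and -0.01 over all 16456 tested genes. A gene passed when its Benjamini-Hochberg adjusted p over all tested genes, from the quasi-likelihood test of edgeR, was under 0.05. In B 1 gene (0.00608%) passed and 1996 (12.1%) had an unadjusted p under 0.05, among them the members H2-DMb1 and Cd74. B deltaPOZ and B wt did not overlap in 7 members with higher and 1 with lower levels, against 19.9% and 19.1% of all tested genes. The members' median was 0.75 without B wt 1 and 2.56 without B wt 2.

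Ciita, which encodes the class II transactivator, stood at 61.7 and 72.7 CPM in B deltaPOZ, against 7.54 and 32.4 CPM in B wt. Both B deltaPOZ libraries lay above both B wt libraries, of which B wt 1 was the lower by far. The difference, 1.75 on the log2 scale (SE 0.77), did not pass (edgeR adjusted p = 0.433).

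Cd74 encodes the invariant chain. It stood at 619 and 509 CPM in B deltaPOZ, against 88.0 and 260 CPM in B wt, again without overlap and with B wt 1 lowest. The log2 fold change was 1.70 (SE 0.67, edgeR adjusted p = 0.395).

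Among the chains that bind peptide, H2-Aa (the A alpha chain) stood at 276 and 149 CPM in B deltaPOZ, against 40.2 and 137 CPM in B wt. H2-Eb1 (the E beta chain) stood at 216 and 155 CPM in B deltaPOZ, against 22.1 and 104 CPM in B wt. H2-Ab1, the A beta chain that pairs with the product of H2-Aa, stood at 321 and 164 CPM in B deltaPOZ, against 93.6 and 172 CPM in B wt. The groups did not overlap for H2-Aa and H2-Eb1, while for H2-Ab1 B wt 2 exceeded B deltaPOZ 2. The log2 fold changes were 1.27 (SE 0.73), 1.56 (SE 0.79) and 0.87 (SE 0.55) in that order, with edgeR adjusted p from 0.471 to 0.553. B wt 1 was also out of step between the chains: per kb of exon, H2-Ab1 was 3.44 times H2-Aa there, 1.86 times in B wt 2, and 1.72 and 1.63 times in B deltaPOZ. H2-Eb2, a second E beta gene outside the 10, stood at 28.6 and 40.0 CPM in B deltaPOZ and 24.9 and 17.04 CPM in B wt (log2 0.71, SE 0.64, edgeR adjusted p = 0.679).

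The peptide exchange factor H2-DM is made of an alpha chain from H2-DMa and a beta chain from H2-DMb1 or H2-DMb2. H2-DMb1 stood at 28.7 and 22.2 CPM in B deltaPOZ, against 3.83 and 9.90 CPM in B wt, the largest fold change among the 10 genes in B (log2 1.89, SE 0.55, edgeR adjusted p = 0.302). DESeq2 called it (log2 1.90, adjusted p = 0.0211). H2-DMb2 stood at 26.1 and 45.6 CPM in B deltaPOZ, against 7.04 and 21.9 CPM in B wt (log2 1.31, SE 0.64, edgeR adjusted p = 0.462). The 2 copies were highest in different B deltaPOZ libraries, H2-DMb1 in the first and H2-DMb2 in the second. Of the 50-base windows of their transcripts, 22.7% and 21.2% were identical between H2-DMb1 and H2-DMb2. Reads wholly within such stretches could not be placed, so the split of the 2 genes is uncertain. How many reads this touched was not tested. H2-DMa stood at 33.1 and 20.8 CPM in B deltaPOZ, against 4.44 and 15.6 CPM in B wt (log2 1.43, SE 0.62, edgeR adjusted p = 0.423), and 10.4% of its exon bases are shared with Brd2 on the other strand.

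H2-O, the inhibitor of H2-DM, is made of the products of H2-Oa and H2-Ob. H2-Ob stood at 44.6 and 70.2 CPM in B deltaPOZ, against 111 and 97.4 CPM in B wt, so it was lower in both deltaPOZ libraries (log2 -0.86, SE 0.43, edgeR adjusted p = 0.471). It was highest in B wt 1, where the chains, Cd74, Ciita and the H2-DM genes were lowest. H2-Oa was low throughout and its groups overlapped, with 6.14 and 2.23 CPM in B deltaPOZ, against 6.62 and 3.38 CPM in B wt (log2 -0.26, SE 0.58, edgeR adjusted p = 0.893). The X letters followed by the Y letters were found for both H2-DMb1 and H2-Ob, though for H2-DMb1 within annotated exon bases. The fold changes of both genes in B had opposite signs, neither past the test. The part of these letters in the levels was not tested. An antisense gene, BC051537, shares 22.8% of the exon bases of H2-Oa on the other strand, and the strand setting of the counting is not given in the sources used here.

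**Figure D1:**
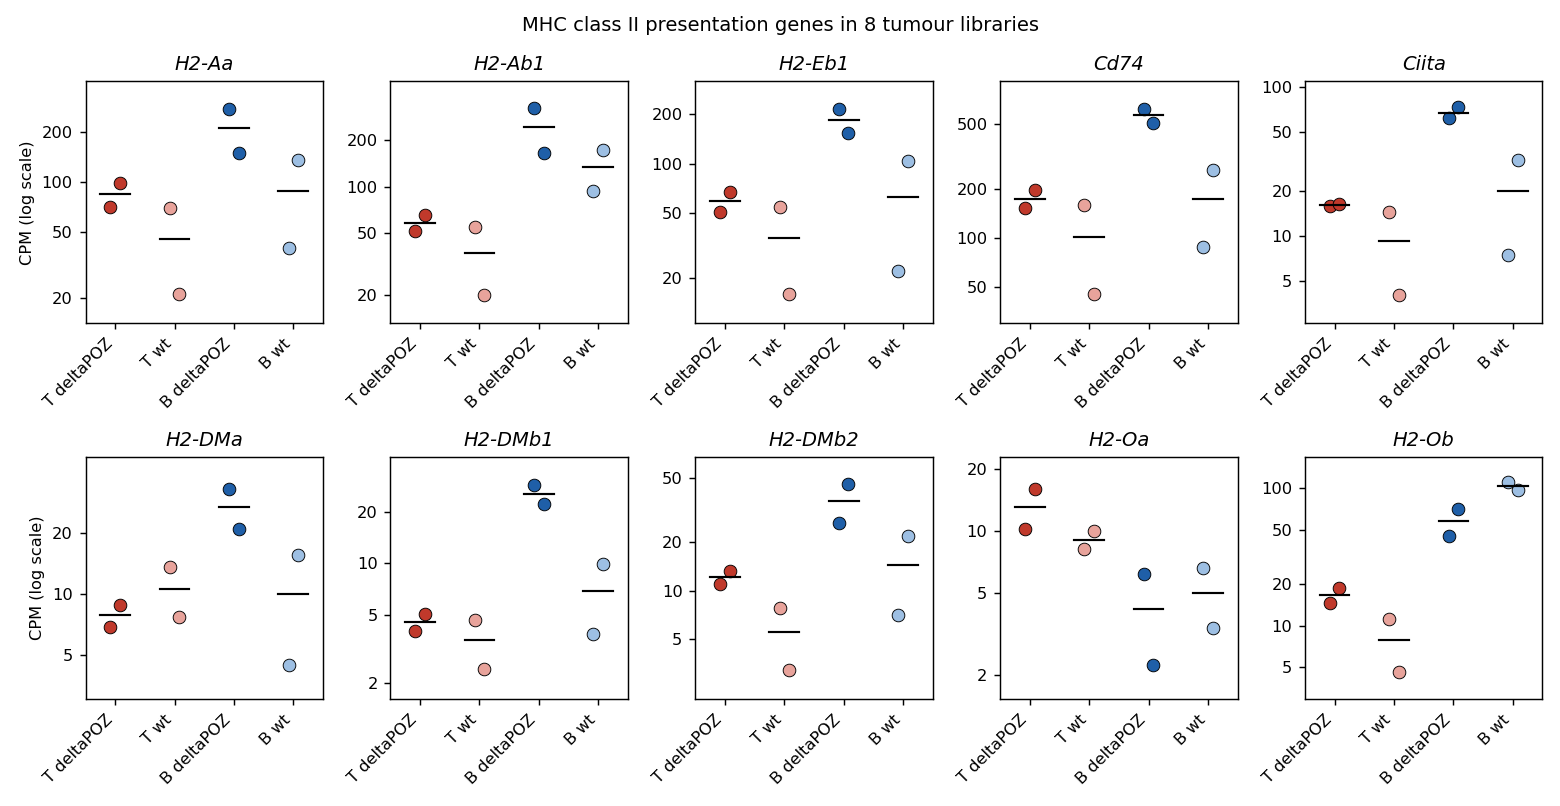
CPM of each of the 10 genes (log scale, own range per panel) in the 4 groups; points are the 2 libraries of a group and bars their mean. B deltaPOZ libraries lie above B wt in 7 panels and below in that of H2-Ob, where B deltaPOZ stands at 44.6 and 70.2 CPM.

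**Figure D2:**
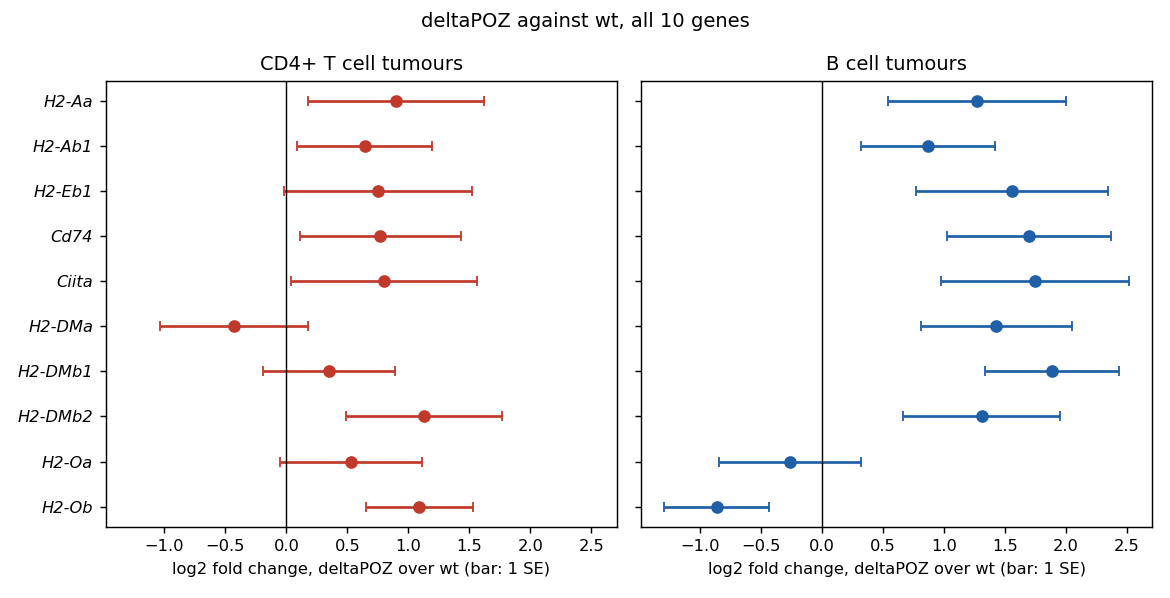
Log2 fold change of deltaPOZ over wt for each gene in CD4+ T cell and B cell tumours (edgeR), with bars of 1 SE. In B tumours 8 of 10 points lie above 0 and H2-DMb1 is highest at 1.89; in T tumours 9 of 10 lie above 0, with H2-DMa below at -0.43.

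The balance of H2-DM against H2-O was read within each library as a ratio of CPM per kb of exon, chosen after the values were seen. The summed H2-DMb1 and H2-DMb2 level was 3.87 and 3.01 times that of H2-Ob in B deltaPOZ, against 0.305 and 1.02 times in B wt. In the T libraries the ratio ran from 3.001 to 3.87, so for the beta chains the B wt tumours stood below all other libraries. H2-DMa was 2.20 and 3.81 times H2-Oa in B deltaPOZ, against 0.274 and 1.88 times in B wt. In T this ratio was 0.274 and 0.225 in T deltaPOZ and 0.674 and 0.314 in T wt, so for the alpha chains B wt 2 lay above all T libraries. These ratios are given as a description, with no test.

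**Figure D3:**
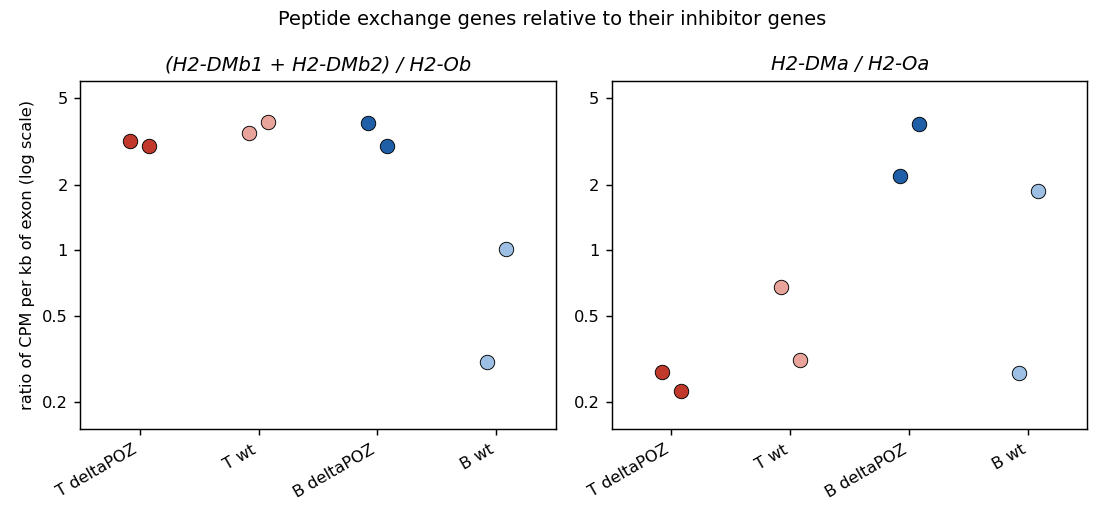
Ratios of exchange factor genes to inhibitor genes within each library, from CPM per kb of exon (log scale). For the beta chains the 2 B wt libraries, at 0.305 and 1.02, lie below the other 6, which run from 3.001 to 3.87.

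Which gene was most abundant was compared per kb of exon. Cd74 led in all 4 groups, at 103.5 (T deltaPOZ), 60.6 (T wt), 336 (B deltaPOZ) and 104 (B wt) CPM per kb on average. The chains H2-Eb1, H2-Ab1 and H2-Aa took the next 3 places in each group. Neighbours in that order overlapped over libraries, as H2-Ab1 (20.1 to 25.4 CPM per kb) and H2-Aa (18.7 to 26.0) did in T deltaPOZ, except H2-Eb1, which lay just above both there (26.15 to 34.5). Ciita was last or next to last in every group, at 1.70, 0.979, 7.05 and 2.10 CPM per kb in the same order of groups. H2-Ob held the fifth place in B wt (19.4 CPM per kb) and the seventh in B deltaPOZ (10.7 CPM per kb). H2-Oa held the fifth place in T deltaPOZ (9.32 CPM per kb) and T wt (6.44 CPM per kb) and the last in B deltaPOZ (2.98 CPM per kb).

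In T tumours, 9 of the 10 genes had positive fold changes of deltaPOZ over wt (49.8% of all tested genes did) and 0 passed. The members' median was 0.76 on the log2 scale. By edgeR 0 genes passed in T (0.0%), with 436 (2.65%) at an unadjusted p under 0.05, H2-Ob among them; DESeq2 called 49 genes and 0 members. The groups did not overlap, with higher levels in T deltaPOZ, for 5 members, against 15.4% of all tested genes: H2-Aa, H2-DMb2, H2-Oa, H2-Ob and Ciita. The edgeR adjusted p was 1 for all 10 members. The fit gave all 4 groups 1 estimate of the spread.

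Ciita had 15.9 and 16.6 CPM in T deltaPOZ, against 14.6 and 4.04 CPM in T wt (log2 0.80, SE 0.76). Cd74 had 152 and 195 CPM in T deltaPOZ, against 158 and 45.3 CPM in T wt (log2 0.77, SE 0.66). H2-Aa had 71.0 and 98.7 CPM in T deltaPOZ, against 69.9 and 21.2 CPM in T wt (log2 0.90, SE 0.72). In all 3 genes T wt 1 was close to T deltaPOZ and T wt 2 stood apart at the low end. H2-Ab1 (51.5 and 65.2 CPM in T deltaPOZ, 54.9 and 20.01 in T wt) and H2-Eb1 (50.8 and 67.1 CPM in T deltaPOZ, 54.2 and 16.1 in T wt) had the same pattern.

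H2-Ob, which stood lower in B deltaPOZ, was at 14.7 and 18.9 CPM in T deltaPOZ, against 11.3 and 4.56 CPM in T wt (log2 1.09, SE 0.44). H2-DMb2 was at 11.01 and 13.2 CPM in T deltaPOZ, against 7.78 and 3.23 CPM in T wt (log2 1.13, SE 0.64). H2-DMb1 was at 4.01 and 5.02 CPM in T deltaPOZ, against 4.68 and 2.42 CPM in T wt (log2 0.35, SE 0.54). These beta chain genes of H2-DM were thus lowest in T wt 2 as well. H2-DMa was the single member with a negative fold change, at 6.87 and 8.82 CPM in T deltaPOZ, against 13.5 and 7.66 CPM in T wt (log2 -0.43, SE 0.61). H2-Oa was at 10.2 and 16.0 CPM in T deltaPOZ, against 8.17 and 9.95 CPM in T wt (log2 0.53, SE 0.58), and T wt 2 was not lowest for either of these.

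Markers of B cells moved with class II in the T libraries. Their 10 markers summed to 101 and 141 CPM in T deltaPOZ, against 99.7 and 25.9 CPM in T wt, and the class II genes to 388 and 505 CPM in T deltaPOZ, against 397 and 134 CPM in T wt. Both sums were lowest in T wt 2 and highest in T deltaPOZ 2. All 10 B cell markers were detected in every T library and 6 did not overlap between the groups, all higher in T deltaPOZ, against 15.4% of all tested genes. The same held for 6 of 10 dendritic cell markers (median log2 1.04) and for 4 of 10 macrophage and monocyte markers (median log2 0.39), and 0 of any of these lists passed. The 10 dendritic cell markers summed to 34.3 and 59.8 CPM in T deltaPOZ, against 36.7 and 21.8 CPM in T wt, where Cd209a had no count in T wt 2. The 10 macrophage and monocyte markers summed to 267 and 266 CPM in T deltaPOZ, against 141 and 198 CPM in T wt, without the low value in T wt 2. The part of these cells in the class II levels was not tested. Without T wt 2 the median log2 fold change of the members in T was 0.15, and without T wt 1 it was 1.87.

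In B the B cell markers went another way than class II. The B cell markers summed to 1953 and 1970 CPM in B deltaPOZ, against 3213 and 2536 CPM in B wt, and 9 of 10 had negative fold changes (median log2 -0.57), with 0 called. Class II sums were 1633 and 1210 CPM in B deltaPOZ, against 384 and 853 CPM in B wt. Relative to the B marker sum this was 0.836 and 0.614 in B deltaPOZ, against 0.120 and 0.336 in B wt. Dendritic cell markers summed to 78.6 and 73.7 CPM in B deltaPOZ, against 73.9 and 63.0 CPM in B wt, with Ccr7 holding most of it. Macrophage and monocyte markers summed to 385 and 74.2 CPM in B deltaPOZ, against 111 and 733 CPM in B wt, with Lyz2 at 633 CPM in B wt 2. Fold changes in B were positive for 6 of 10 dendritic cell markers (median log2 0.17) and 7 of 10 macrophage and monocyte markers (1.21). Of all tested genes 48.1% were positive, and 0 of these markers passed. No marker of these lists lay higher in both B deltaPOZ libraries than in either B wt library. The part of these cells in the class II levels in B was not tested. None of the 30 markers of these 3 lists was at 0 in any B library. Sex also moved with genotype in B, and its part in the class II levels cannot be told apart from that of genotype.

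**Figure D4:**
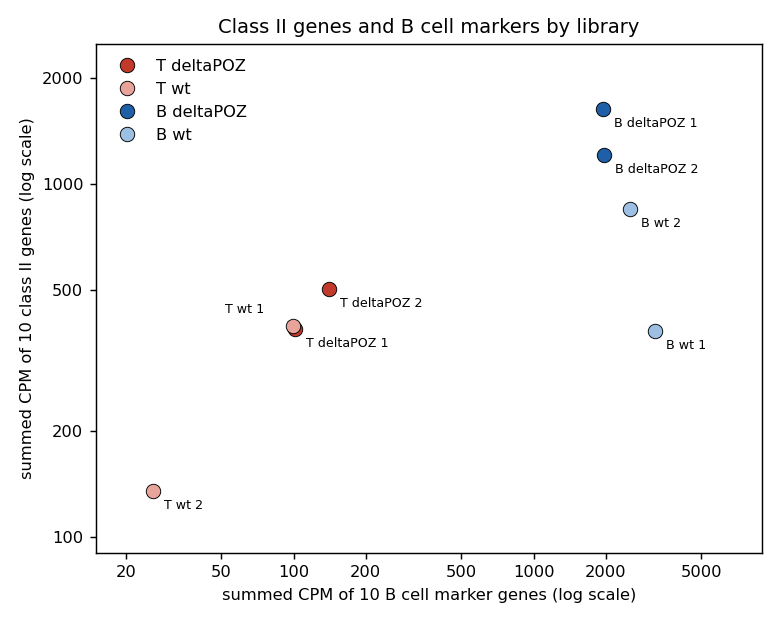
Summed CPM of the 10 class II genes against summed CPM of 10 B cell markers in each library (both log scale). Among B tumours the library with the highest marker sum, B wt 1 (3213 CPM), has the lowest class II sum (384 CPM); among T tumours T wt 2 is lowest in both (25.9 and 134 CPM).

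Whether the deltaPOZ effect differed between the lineages was tested as an interaction. None of the 10 members passed, as was so for all tested genes (0.0% by edgeR, 1030 genes or 6.26% at an unadjusted p under 0.05, H2-Ob the member among them, and 227 genes by DESeq2). H2-Ob had the largest difference of the effect, T minus B (log2 1.95, SE 0.62, edgeR adjusted p = 0.720). H2-DMa (-1.86, SE 0.87) and H2-DMb1 (-1.54, SE 0.76) had the largest in the other direction, with edgeR adjusted p of 0.802 and 0.809. For the chains, Cd74 and Ciita the differences ran from -0.95 to -0.23.

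Between the lineages, 4 members fell in T tumours relative to B tumours and 0 rose, over both genotypes: H2-Ob, H2-Ab1, H2-DMb1 and H2-DMb2. Of all tested genes 16.0% fell and 19.3% rose in the same test. Negative fold changes, T minus B, were found for 9 members and for 47.6% of all tested genes. The median log2 fold change, T minus B, was -1.36 for the members and 0.05 for all tested genes. H2-Ob fell most, to 4.56 to 18.9 CPM in T, against 44.6 to 111 CPM in B (log2 -2.75, SE 0.33, edgeR adjusted p = 0.00186). H2-Ab1 fell to 20.01 to 65.2 CPM in T, against 93.6 to 321 CPM in B (log2 -1.94, SE 0.40, edgeR adjusted p = 0.0113). For both genes every T library lay below every B library. The share of all tested genes separated in that direction is not given here, so the separation is a description only. H2-DMb1 (log2 -1.72, SE 0.39, edgeR adjusted p = 0.0155) and H2-DMb2 (-1.48, SE 0.46, 0.0434) fell with overlap, since B wt 1 lay within the T range. Either H2-DMb call was lost without T deltaPOZ 1 (0.0586 and 0.123) or T wt 2 (0.0505 and 0.113), and that of H2-DMb2 also without T deltaPOZ 2, B deltaPOZ 1, B deltaPOZ 2 or B wt 2 (0.0552 to 0.111).

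The other 6 members did not pass. H2-Oa stood higher in every T library (8.17 to 16.0 CPM) than in any B library (2.23 to 6.62 CPM), a difference of 1.25 on the log2 scale (SE 0.42, edgeR adjusted p = 0.0550); such separation was seen for 20.1% of tested genes. Cd74 ran from 45.3 to 195 CPM in T, against 88.0 to 619 CPM in B (log2 -1.24, SE 0.47, edgeR adjusted p = 0.0814). Ciita ran from 4.04 to 16.6 CPM in T, against 7.54 to 72.7 CPM in B (log2 -1.57, SE 0.55, edgeR adjusted p = 0.0629). H2-Aa (-1.14, SE 0.51), H2-Eb1 (-1.25, SE 0.55) and H2-DMa (-0.85, SE 0.43) had adjusted p from 0.122 to 0.170. For H2-Aa and H2-Eb1 B wt 1 was the B library inside the T range, and for H2-DMa B wt 1 lay below all T libraries. Of the 10 B cell markers 9 fell and Fcer2a, the low-affinity IgE receptor gene, rose, against 16.0% and 19.3% of all tested genes. Relative to the B cell marker sum, the class II sum was 3.59 to 5.19 in T, against 0.120 to 0.836 in B.

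The genes next to the members were examined to see whether the whole interval moved. Of 17 genes of the files between H2-Oa and H2-Eb1, 14 were tested, 8 of them members. The proteasome and peptide transporter genes Psmb9, Tap1, Psmb8 and Tap2, which serve class I and lie between the H2-DM genes and H2-Ob, had log2 fold changes of -0.43, -0.60, 0.07 and -0.01 in B. The chromatin reader gene Brd2 had -0.21 (SE 0.18). The 6 non-members had a median of -0.11 in B, against 1.29 for the 8 members there, and -0.03 against 0.70 in T. Gm20513, an antisense gene that overlaps H2-Eb1 outside its exons, had very low levels, 0.780 and 2.33 CPM in B deltaPOZ, against 0.0380 and 0.0890 CPM in B wt, and did not pass (edgeR adjusted p = 0.303).

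**Figure D5:**
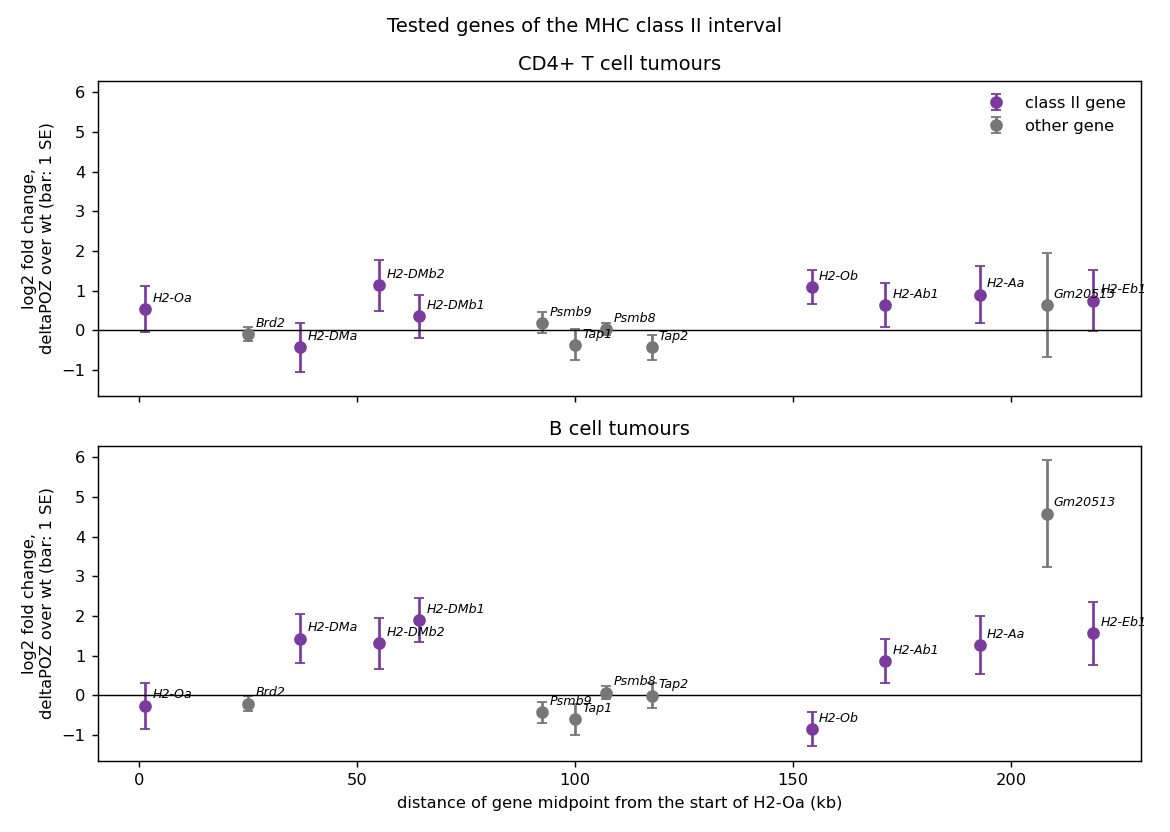
Log2 fold change of deltaPOZ over wt (bars 1 SE) for the 14 tested genes between H2-Oa and H2-Eb1, by distance of the gene's midpoint from the start of H2-Oa in kb. In B tumours the class II genes other than H2-Oa and H2-Ob lie above 0, with Psmb9, Tap1, Psmb8 and Tap2 between them at -0.60 to 0.07.

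Other genes of the pathway came from lists chosen by function, and 0 of their members passed in B or in T. Promoter factors that CIITA docks on (Rfx5, Rfxap, Rfxank, Nfya, Nfyb, Nfyc and Creb1) had medians of -0.26 in B and -0.06 in T on the log2 scale. Nfyb, a subunit of the Y box factor, had the smallest p in B, at 59.9 and 60.3 CPM in B deltaPOZ, against 100.3 and 84.2 CPM in B wt (log2 -0.62, SE 0.18, edgeR adjusted p = 0.301). In T minus B, 4 of these 7 factors rose (Rfxap, Rfxank, Nfyb and Creb1) and 0 fell, against 19.3% and 16.0% of all tested genes.

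Of 13 regulators of Ciita and of interferon-gamma signalling, 3 had positive and 10 negative fold changes in B (median log2 -0.32). Of all tested genes 48.1% had positive ones. Jak2, a kinase of the interferon-gamma receptor, stood at 32.3 and 17.6 CPM in B deltaPOZ, against 51.3 and 54.8 CPM in B wt (log2 -1.09, SE 0.29, edgeR adjusted p = 0.279). Irf1, a factor that acts on a Ciita promoter, stood at 35.7 and 31.4 CPM in B deltaPOZ, against 91.0 and 39.4 CPM in B wt (log2 -0.96, SE 0.37, edgeR adjusted p = 0.389). Both stood lower in B deltaPOZ without overlap, as did 19.1% of all tested genes, and neither passed. Ciita stood higher there, and the part of these genes in its level was not tested. In T minus B, 5 fell, among them Pax5 (log2 -4.70), Spi1 (-2.63) and Irf8 (-2.42), and 4 rose, among them Jak2 (1.70) and Socs1 (2.98). Of all tested genes 16.0% fell and 19.3% rose.

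Of 12 genes of endosomal processing and class II turnover, 8 had positive fold changes in B (median log2 0.37), against 48.1% of all tested genes. Ifi30, the thiol reductase that unfolds antigens, stood at 128 and 152 CPM in B deltaPOZ, against 59.2 and 78.3 CPM in B wt (log2 1.03, SE 0.22, edgeR adjusted p = 0.224). Lgmn, an asparagine protease, stood at 150 and 108 CPM in B deltaPOZ, against 82.7 and 65.7 CPM in B wt (log2 0.80, SE 0.23, edgeR adjusted p = 0.299). Ctss, the main invariant chain protease of B cells, stood at 277 and 145 CPM in B deltaPOZ, against 169 and 165 CPM in B wt, with overlap. In T minus B, 6 of the 12 fell and 2 rose, against 16.0% and 19.3% of all tested genes: Ctss fell (log2 -2.18) and Marchf8, a ubiquitin ligase gene, rose (2.75).

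Of 15 genes of class I presentation, which loads peptides made by the proteasome, 5 had positive and 10 negative fold changes in B (median log2 -0.27). Of all tested genes 48.1% had positive ones. H2-D1, among the 10, stood at 288 and 247 CPM in B deltaPOZ, against 729 and 231 CPM in B wt (log2 -0.84, SE 0.51, edgeR adjusted p = 0.539). B wt 1, the lowest B library for class II, was the highest for H2-K1 and H2-D1, the classical class I heavy chains, with 550 and 729 CPM. In T minus B, 5 class I genes rose, among them B2m (log2 1.48), the class I light chain, and Tapbpl (1.79), and Canx, a chaperone gene, was the 1 that fell (-0.74), against 19.3% of all tested genes that rose and 16.0% that fell.

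Of 6 genes of costimulation and the antigen presenting cell surface (Cd80, Cd86, Cd40, Icosl, Cd274 and Pdcd1lg2), 4 had positive fold changes in B (median log2 0.35), against 48.1% of all tested genes. Icosl had the smallest p in B and a negative fold change (log2 -1.52, SE 0.57, edgeR adjusted p = 0.385). It was lower in B deltaPOZ without overlap, as were 19.1% of all tested genes. In T minus B all 4 tested receptors of class II or costimulation on T cells rose. So did all 10 T cell markers, while 19.3% of all tested genes rose.

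The tested genes most like the members were sought by Pearson r with the mean log2 CPM of the members over 8 libraries, each centred on its lineage mean. They were Ctsh (r = 0.974), an endosomal aminopeptidase gene, Gpr137b-ps (0.961), the unnamed ENSMUSG00000097143 (0.957), Smpdl3a (0.953) and Gm16062 (0.952). ENSMUSG00000097143 had very low levels, 0.0 to 0.0663 CPM in T and 0.0759 to 0.449 CPM in B. Its T levels were near or under the limit for a count of 0, so its r rests on few counts. Ctsh stood at 10.4 and 14.6 CPM in T deltaPOZ, 10.4 and 6.58 in T wt, 36.1 and 26.1 in B deltaPOZ, and 13.6 and 21.6 in B wt. Its lowest B library was B wt 1 and its lowest T library T wt 2, as for Ciita. Of the members, which are part of that mean, Cd74 (0.994), H2-Eb1 (0.991), H2-Aa (0.990) and Ciita (0.972) followed it closely, H2-DMa less so (0.793), and H2-Ob (0.152) and H2-Oa (-0.15) least. These r share libraries and centring with only 8 points and are given as a description.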

How the data were processed

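RNA was extracted with a MagMax-96 kit and made into TruSeq Stranded mRNA libraries, per the labels' protocols. The deposited files hold raw counts per Ensembl gene; per the submitters' processing notes the tools were TopHat2 2.0.10, SAMtools, HTSeq and DESeq on mm10/GRCm38. The sources used here give neither the annotation release nor the strand setting. Of gene, no-feature and ambiguous counts, 30.4 to 39.3% were no-feature and 0.471 to 0.554% ambiguous; these and reads without a unique place were left out. Symbols, positions and exon lengths were taken from GENCODE M21 on GRCm38; it listed 40340 of 41214 identifiers (97.9%).

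All 8 libraries were fitted in edgeR 4.0.16 (R 4.3.3; TMM, filterByExpr, 16456 genes, 1 mean per group, glmQLFit and glmQLFTest); the biological coefficient of variation was 0.45 and the residual degrees of freedom 4. All 10 members passed the filter. The SE is the fold change divided by the square root of F. Alternatives used DESeq2 1.42.0 and limma 3.58.1, and the code was tested on simulated data. Tables and figures used Python 3.11.15, pandas 2.3.3, NumPy 2.4.6 and matplotlib 3.10.9. The 8 mice are separate, and libraries were numbered in accession order.

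The members, lists and tests were chosen with earlier results of these data known. All members are named; of other lists, up to 4 with the smallest p in a contrast were eligible, and Ctss, H2-K1 and H2-D1 and the T minus B examples were picked for their role after their values were seen. Likeness used 1 count added before the log2.

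The alternatives were other size factors, DESeq2, limma-voom, other filters, each lineage alone and each library left out.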

Additional observations from a re-analysis of the deposited data

Results flagged for a closer look

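H2-Ob was lower in both B deltaPOZ libraries than in B wt (44.6 and 70.2 CPM, against 111 and 97.4 CPM) and higher in both T deltaPOZ libraries than in T wt (14.7 and 18.9 CPM, against 11.3 and 4.56 CPM). The difference of the effect, T minus B, was 1.95 on the log2 scale (SE 0.62) and did not pass (edgeR adjusted p = 0.720). In T its low value in T wt 2 went with the lowest B cell marker sum of the T libraries (25.9 CPM); the part of these cells was not tested.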

How the results depend on the processing

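No paired analysis was possible because the libraries carry no replicate numbers that tie them across groups. Members called in B numbered 0 by edgeR, 1 by DESeq2 (H2-DMb1) and 7 with no filter on low counts, all higher; leaving out a library gave 0 to 0. Genes called in B numbered 1, and 688 by DESeq2, 6 by limma-voom, 1324 with no filter, 6 with B libraries alone, and 0 to 9 without a library. In T they numbered 0, and 49 by DESeq2 and 254 with no filter. In T minus B, 4 members were called, 8 by DESeq2, 10 with no filter and 2 to 8 without a library, and 5801 genes, 3621 to 4900 without a library. For the difference between lineages DESeq2 called 227 genes, the unfiltered fit 784 and 1 member (H2-Ob), and fits without a library 0 to 4. The numbers of all genes that DESeq2 and the unfiltered fit called in T minus B are not given here. Their 8 and 10 members called thus have no background share beside them and are not a result about class II. The cause of the higher counts was not tested.

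The members' median ran from 0.75 to 2.56 in B, 0.15 to 1.87 in T, -1.84 to -0.82 in T minus B and -1.77 to 0.45 for the difference without 1 library. Without B wt 2, T wt 1 and T deltaPOZ 2 together, chosen after seeing the data, it was 2.50 in B and 1.65 in T, and 1312 genes were called in T minus B.

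Leaving out 1 library turned the sign of H2-Oa in B (-1.11 to 0.31; 0.29 without B deltaPOZ 2, 0.31 without B wt 1), of H2-DMa (-0.78 to 0.03) and H2-DMb1 (-0.05 to 0.90) in T, and of the differences of H2-Aa (-1.57 to 0.73), H2-Ab1 (-0.80 to 0.67), H2-Eb1 (-2.38 to 0.31), H2-DMb2 (-1.27 to 0.59), Cd74 (-1.98 to 0.24) and Ciita (-2.42 to 0.25). None of these passed. In T minus B, H2-Ob and H2-Ab1 passed in all settings run. The number of libraries, 2 per group, limits the precision; each member's level in each library lay above the limit for a count of 0.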
